A study of Mus musculus with 4 samples.

Results

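The comparison described here sets the double mutant Sco2KO/KI;db/db against db/db in 8 clusters of kidney cortex nuclei that lie outside the proximal tubule. Its members were the library columns of these 2 genotypes for clusters 4, 5, 6, 8, 9, 11, 12 and 13 in the deposited table of cluster averages, which make 2 of the 4 libraries of the study. The 8 clusters held 1880 nuclei of the double mutant and 1872 of db/db, of about 5269 and 4576 nuclei in all clusters. Nuclei were isolated from perfused and stored kidney cortex and profiled with droplet-based 10x Genomics sequencing in 4 genotypes of C57BL/6J mice: wild type (WT), the single mutants db/db and Sco2KO/KI, and the double mutant, with 1 library each. The sources used here give no ages and do not say whether a library came from 1 animal or from a pool. With 1 library per genotype nothing was tested, and every difference describes these libraries only.

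Sco2 is a copper chaperone of the mitochondrial inner membrane that helps to build the copper centre of cytochrome c oxidase, the last complex of the respiratory chain. In Sco2KO/KI mice 1 allele is knocked out and the other replaced by a knock-in, in lean mice and in the double mutant alike. The db mutation removes the signalling form of the leptin receptor, and db/db mice become obese and diabetic; both libraries compared carry it. Beyond the proximal tubule, the thick ascending limb, distal convoluted tubule and connecting tubule recover sodium, calcium and magnesium with pumps that draw on oxidative metabolism, the principal cells of the collecting duct take up water and sodium, and intercalated cells handle acid and base.

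Levels are mean UMIs per 10000 UMIs of a nucleus, averaged by the authors over the nuclei of a cluster. A log2 ratio is that of the level plus 0.1 in the double mutant over the level plus 0.1 in db/db, which understates the differences of low genes. A gene counted as measured in a cluster where either library reached 0.5, a level that stood for about 8.61 to 36.7 UMIs, so that counting error is wide near it. The clusters held 98 to 366 nuclei per library, with median UMI totals of about 948 to 3034 per nucleus. Where 2 values are joined by "against", the first is that of the double mutant and the second that of db/db, unless the sentence names other libraries. In a cluster mean, fewer nuclei of a subtype and less RNA per nucleus cannot be told apart.

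Marker genes supported names for 6 of the clusters: cluster 4 was thick ascending limb-like, cluster 5 distal convoluted tubule-like, cluster 8 connecting tubule-like, cluster 9 endothelium-like, cluster 11 type B intercalated cell-like and cluster 13 principal cell-like. Cluster 8 also carried 6 of 10 principal cell markers. Cluster 6 carried both stromal and endothelial markers, and cluster 12 both distal convoluted tubule and connecting tubule markers, so these stayed unnamed. Transcripts of the proximal tubule were present in all 8: the 25 proximal tubule markers summed to 36.4 to 172 in the double mutant against 36.1 to 158 in db/db. In the proximal tubule clusters 0, 1, 2, 3 and 7 they summed to 318 to 400.3 against 349 to 394, and none of them was at 0 in both libraries of any of the 8 clusters. Sco2 itself (chromosome 15, 89371637 to 89373846, minus strand, mm10) was at most 0.0986 in the 8 clusters, too low to check the genotypes.

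Most genes past 2-fold were past it in a single cluster, and a small group moved the same way in all of them. Summed over the 8 clusters, 1745 gene and cluster pairs of 35158 measured were at least 2-fold higher in the double mutant and 1448 at least 2-fold lower, which is 4.96% and 4.12% of the pairs. Of these, 964 higher and 967 lower genes were past 2-fold in that direction in 1 cluster only, which is 55.2% and 66.8% of the pairs past 2-fold. At the other end, 16 genes were at least 2-fold higher in 6 or more clusters and 4 at least 2-fold lower, and 3 and 1 in all 8. The genes 2-fold higher in all 8 were S100g, mt-Co2 and Gm10073, and the gene 2-fold lower in all 8 was Gm42397.

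The share of measured genes past 2-fold was largest in the principal cell-like cluster 13, the cluster with the fewest nuclei, at 9.69% higher and 6.47% lower (455 and 304 of 4696 genes). The endothelium-like cluster 9, whose nuclei had the lowest median UMI totals, followed with 5.96% higher and 6.36% lower. Cluster 12 had 4.59% higher and 4.21% lower, the connecting tubule-like cluster 8 4.38% higher and 2.8% lower and the thick ascending limb-like cluster 4 4.14% higher and 3.41% lower. The type B intercalated cell-like cluster 11 had more genes lower than higher, with 3.97% higher and 4.84% lower. Cluster 6 had 3.59% higher and 2.5% lower, and the distal convoluted tubule-like cluster 5 the smallest shares, with 2.94% higher and 2.03% lower. The part of depth in the order of the clusters was not tested.

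**Figure D1:**
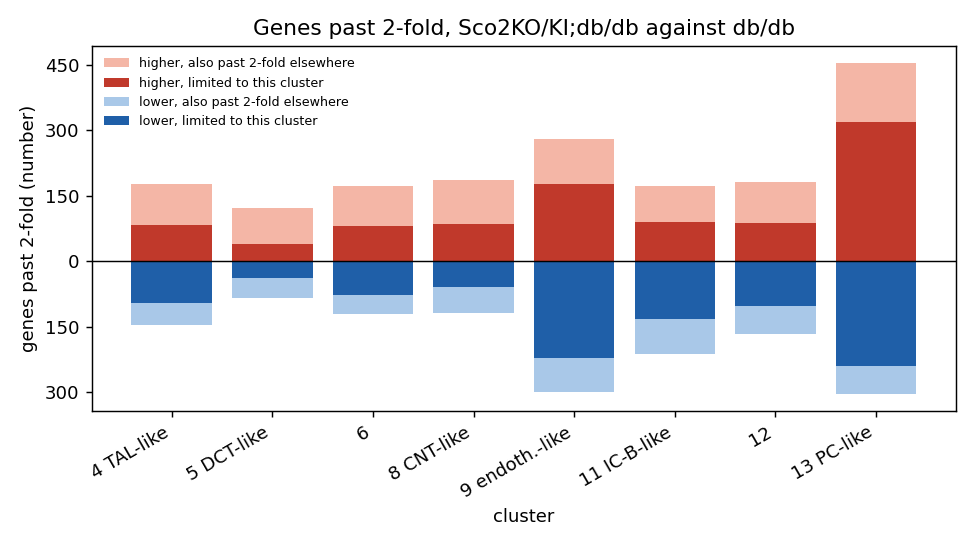
Number of genes at least 2-fold higher (upward bars) or lower (downward bars) in Sco2KO/KI;db/db than in db/db, by cluster; the dark part of a bar counts genes past 2-fold in that direction in no other of the 8 clusters. Cluster 13 has the longest bars, with 455 genes higher and 304 lower, and cluster 5 the shortest, with 123 and 85.

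Of the 2560 genes measured in all 8 clusters, 143 (5.59%) were higher in the double mutant in every cluster and 223 (8.71%) lower in every cluster. The 12 highest by their median log2 ratio were S100g, Gm10073, Calr, Cox8a, mt-Co1, S100a1, Miox, Slc22a8, mt-Cytb, Ftl1, Cyp4b1 and Klk1. Among the 12 lowest were Gm42397, Slc12a1, Pik3c2a, Gm26917, Nuak2, Gas2, Ahdc1, Mdn1, Lrp2 and Fut9. Of these, Gm10073, Gm42397 and Gm26917 carry only model names.

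**Figure D2:**
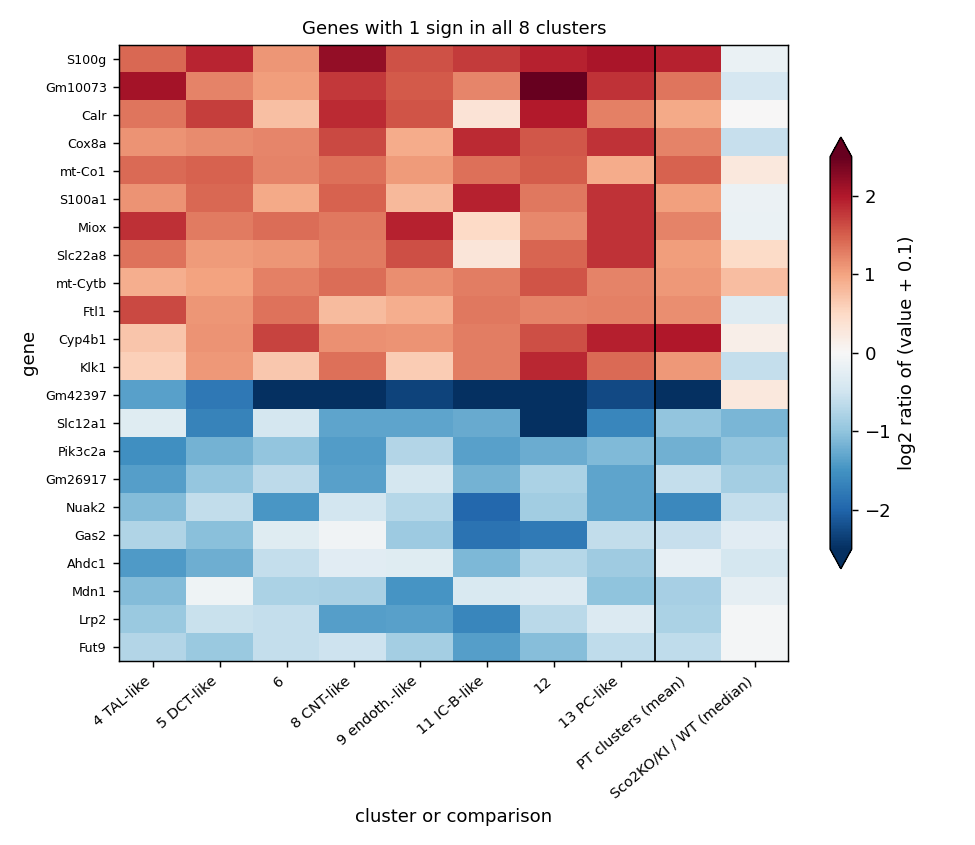
Log2 ratios of Sco2KO/KI;db/db over db/db for 12 of the highest and 10 of the lowest genes with 1 sign in all 8 clusters, with the mean over the proximal tubule (PT) clusters and the median log2 ratio of Sco2KO/KI over WT in 7 clusters at the right; colours beyond 2.5 are capped. The 22 genes keep their sign in the proximal tubule column, and most upper genes are pale or blue in the Sco2KO/KI against WT column.

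Transcripts of the mitochondrial genome, which encode core subunits of the respiratory chain and ATP synthase, were higher in the double mutant in all 8 clusters. mt-Co1, the catalytic subunit of cytochrome c oxidase, lay at 22.2 to 29.3 in the double mutant against 7.93 to 13.8 in db/db. In cluster 4 it was at 24.1 in the double mutant against 8.99 in db/db, and in cluster 8 at 29.3 against 11.2. mt-Co2, the subunit that receives copper with the help of Sco2, lay at 22.1 to 31.1 in the double mutant against 10.6 to 14.1 in db/db, with log2 ratios of 1.02 to 1.27. mt-Cytb, the cytochrome b of complex III, lay at 14.5 to 18.7 in the double mutant against 5.6 to 8.36 in db/db, and mt-Atp6 of ATP synthase at 12.7 to 18.3 in the double mutant against 6.3 to 9.78 in db/db. Of 13 mitochondrially encoded genes, 12 were measured and every one was higher in every cluster. Of their 96 gene and cluster pairs, 50 were past 2-fold higher and 0 lower, beside 4.96% and 4.12% of all measured pairs. The list's median log2 ratio per cluster was between 0.86 and 1.18, beside -0.11 to 0.02 for all measured genes. mt-Nd6, the remaining member, was at most 0.241 in any cluster. Mitochondrial transcripts are made outside the nucleus, so their level in nuclei need not be that of the cell type. The part of RNA carried over between nuclei in these values was not tested.

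The difference was as large in the proximal tubule clusters, where the list's median was 1.08. In the libraries of lean mice, which share none with this comparison, it was 0.72 for Sco2KO/KI against WT over 7 of the clusters; cluster 11 was left out there because Sco2KO/KI held about 15 nuclei in it. The 7 clusters held about 27 to 84 nuclei of lean Sco2KO/KI, so that counting error is wider in every lean comparison. mt-Co1 itself had a median of 0.27 on the lean background against 1.38 here, and mt-Co2 0.34 against 1.15.

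Subunits of the respiratory chain encoded in the nucleus were higher by less. Their list of 43 genes in the table had a median log2 ratio of 0.40 over the clusters, positive in all 8, with 32 of 251 pairs past 2-fold higher and 3 lower, beside 4.96% and 4.12% of all measured pairs; the median was 0.18 after centring each length group, described further on. Cox8a, a small subunit of cytochrome c oxidase, stood apart, at 1.36 to 3.19 in the double mutant against 0.523 to 0.917 in db/db and past 2-fold in 7 clusters. In the lean libraries Cox8a went the other way, with a median log2 ratio of -0.58, and the nuclear list was at -0.06. Genes of copper delivery and cytochrome c oxidase assembly, a list with Sco2 itself and the metallothioneins Mt1 and Mt2, had a median of -0.04. Of the list's pairs, 8 of 51 were past 2-fold higher and 0 lower. In cluster 4 the 1 higher pair was Mt2, at a log2 ratio of 1.47. Most of its members were below the level counted as measured, and with a floor of 1 its median was 0.26. Cytosolic ribosomal protein genes had a median of 0.57, positive in all 8 clusters, and -0.01 in the lean libraries; centred by length it was 0.34.

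Genes of calcium transport and vitamin D response were among the largest shared differences. S100g (chromosome X, 162961992 to 162964599, minus strand), which encodes the calcium-binding protein calbindin-D9k, lay at 2.75 to 27.4 in the double mutant against 0.873 to 5.92 in db/db. The highest levels were in the connecting tubule-like cluster 8, at 27.4 in the double mutant against 5.92 in db/db, and in cluster 12, at 21.2 against 5.55. Cyp24a1, the enzyme that inactivates vitamin D hormone, lay at 0.386 to 3.32 in the double mutant against 0 to 0.163 in db/db, highest in cluster 6. Its level in the proximal tubule clusters was 5.7 against 0.251, so that no cluster outside reached the proximal tubule mean; the part of proximal tubule RNA in these values was not tested. Vdr, the vitamin D receptor, was past 2-fold higher in cluster 6, at 2.38 against 1.05, and cluster 13, at 1.6 against 0.557, and lower in cluster 5, at 2.56 against 4.43.

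Several other genes of the connecting tubule were past 2-fold higher in clusters 8 and 13. Calb1, the larger calbindin, was at 31.1 in the double mutant against 11 in db/db in cluster 8 and at 10.8 against 3.38 in cluster 13, but at 7.87 against 8.69 in cluster 5. Trpv5, the calcium entry channel, was at 3.82 against 1.8 in cluster 8 and 1.05 against 0.169 in cluster 13. Egfem1 was at 13.9 against 0.541 in cluster 12, and at 9.47 against 0.358 in cluster 13 and 31 against 9.41 in cluster 8. Klk1, the kidney kallikrein made in the connecting tubule, was higher in all 8 clusters, at 17.8 against 6.8 in cluster 8 and 11.6 against 3.09 in cluster 12. Slc8a1, the sodium-calcium exchanger, was higher by less than 2-fold, at 445 against 263 in cluster 8, 53.5 against 29.4 in cluster 13 and 6.61 against 5.92 in cluster 4. Of the 22 genes of distal calcium and magnesium handling, 31 of 126 pairs were past 2-fold higher and 5 lower, beside 4.96% and 4.12% of all measured pairs. Of the 31 higher pairs, S100g gave 8, Cyp24a1 7 and Egf 4. The list's median over the clusters was 0.11, from -0.03 in cluster 9 to 0.56 in cluster 8 and 0.88 in cluster 13.

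Of the 10 connecting tubule markers, which include these genes, 8 were higher in cluster 8 and 8 in cluster 13. They summed to 94.7 in the double mutant against 42.5 in db/db in cluster 13, with 7 past 2-fold higher and 1 lower, and to 588 against 314 in cluster 8, with 6 past 2-fold higher and 0 lower. Of all measured genes, 9.69% were past 2-fold higher and 6.47% lower in cluster 13, and 4.38% and 2.8% in cluster 8. Slc8a1 made up most of the sums in both clusters. The lower one in cluster 13 was Trpv6, a calcium channel like Trpv5, at 0.171 against 0.76. In cluster 12, which held the highest sum of these markers, they came to 1047 against 879.6, with 3 past 2-fold higher, beside 4.59% of all measured genes. In the other 5 clusters between 1 and 3 were past it, beside 2.94% to 5.96% of all measured genes. The 10 principal cell markers summed to 56.7 against 62.1 in cluster 13, where Aqp2, the water channel, was at 16.4 against 21.8. Cluster 8 held 319 nuclei of the double mutant and 189 of db/db. A larger share of connecting tubule nuclei inside these clusters and a higher level per nucleus cannot be told apart in the averages.

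Calr (chromosome 8, 84841850 to 84846934, minus strand), the calcium-binding chaperone calreticulin of the endoplasmic reticulum, was the highest shared gene with a role in protein folding. It lay at 1.15 to 2.56 in the double mutant against 0.255 to 1.25 in db/db, past 2-fold in 6 clusters. Because Calr belongs to the genes that the unfolded protein response can switch on through an endoplasmic reticulum stress element, 23 chaperone and response genes, chosen after its value was seen, were set beside it. Of 10 measured in all 8 clusters, Calr, Hsp90b1, P4hb and Lman1 were higher in all 8 and none was lower in all 8, beside 5.59% and 8.71% of all genes measured there; Calr itself prompted the list. P4hb, a protein disulfide isomerase, lay at 0.668 to 1.38 in the double mutant against 0.277 to 0.837 in db/db, and Lman1, a cargo receptor for secreted glycoproteins, at 0.744 to 1.45 in the double mutant against 0.336 to 0.742 in db/db. Hspa5, the chaperone BiP that is the usual marker of the response, was higher in 6 clusters and lower in 2, at 0.68 against 0.376 in cluster 8 and 0.699 against 1.07 in cluster 9. The 250 bases upstream of the RefSeq gene start (build GRCm38.p6) are printed for Calr, Hsp90b1 and Hspa5, to show a gene with a large difference, a gene with a small one and the usual marker, 5′ to 3′ on the gene's strand; capitals mark CCAAT, 9 bases and CCACG, searched on both strands.
Calr, chr8:84846932-84847181, minus strand: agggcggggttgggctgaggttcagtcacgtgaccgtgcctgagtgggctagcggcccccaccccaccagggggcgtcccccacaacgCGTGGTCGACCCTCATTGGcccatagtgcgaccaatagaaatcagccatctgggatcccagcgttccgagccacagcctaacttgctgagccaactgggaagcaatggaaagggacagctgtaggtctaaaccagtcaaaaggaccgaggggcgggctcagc
Hsp90b1, chr10:86705445-86705694, minus strand: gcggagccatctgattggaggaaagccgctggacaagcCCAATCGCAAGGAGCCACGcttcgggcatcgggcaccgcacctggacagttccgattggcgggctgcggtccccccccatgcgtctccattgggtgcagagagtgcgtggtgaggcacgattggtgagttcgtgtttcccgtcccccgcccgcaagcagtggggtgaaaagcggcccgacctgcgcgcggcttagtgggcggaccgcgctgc
Hspa5, chr2:34771840-34772089, plus strand: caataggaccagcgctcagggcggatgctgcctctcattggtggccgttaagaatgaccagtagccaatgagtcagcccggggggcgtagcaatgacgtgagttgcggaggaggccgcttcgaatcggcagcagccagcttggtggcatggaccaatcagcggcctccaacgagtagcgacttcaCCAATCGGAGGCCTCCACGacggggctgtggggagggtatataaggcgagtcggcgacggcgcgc

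The element began 162 bases upstream of the Calr start, on the opposite strand, 212 bases upstream for Hsp90b1 and 65 bases upstream for Hspa5. It was present in 35 of 27025 windows of this length (0.13%), in 5 of the 2030 genes with a window among those measured in all 8 clusters, and in 2 of the 101 that were higher in all 8, which were Calr and Hsp90b1. The match is a description of these letters only. Hsp90b1 lay at 1 to 2.27 in the double mutant against 0.863 to 1.37 in db/db, with a median log2 ratio of 0.28 against 1.45 for Calr. Of the 23 chaperone and response genes 19 had a window and 7 of these held the element: Calr, Hsp90b1, Hspa5, Canx, Dnajc3, Creld2 and Pdia6. Canx, the chaperone calnexin, had a median log2 ratio of 0.21 and was higher in 6 clusters, and Dnajc3, a co-chaperone of BiP, had -0.03 and was past 2-fold once in each direction. Creld2 was below the level counted as measured in all 8 clusters. P4hb had no match in its window.

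**Figure D3:**
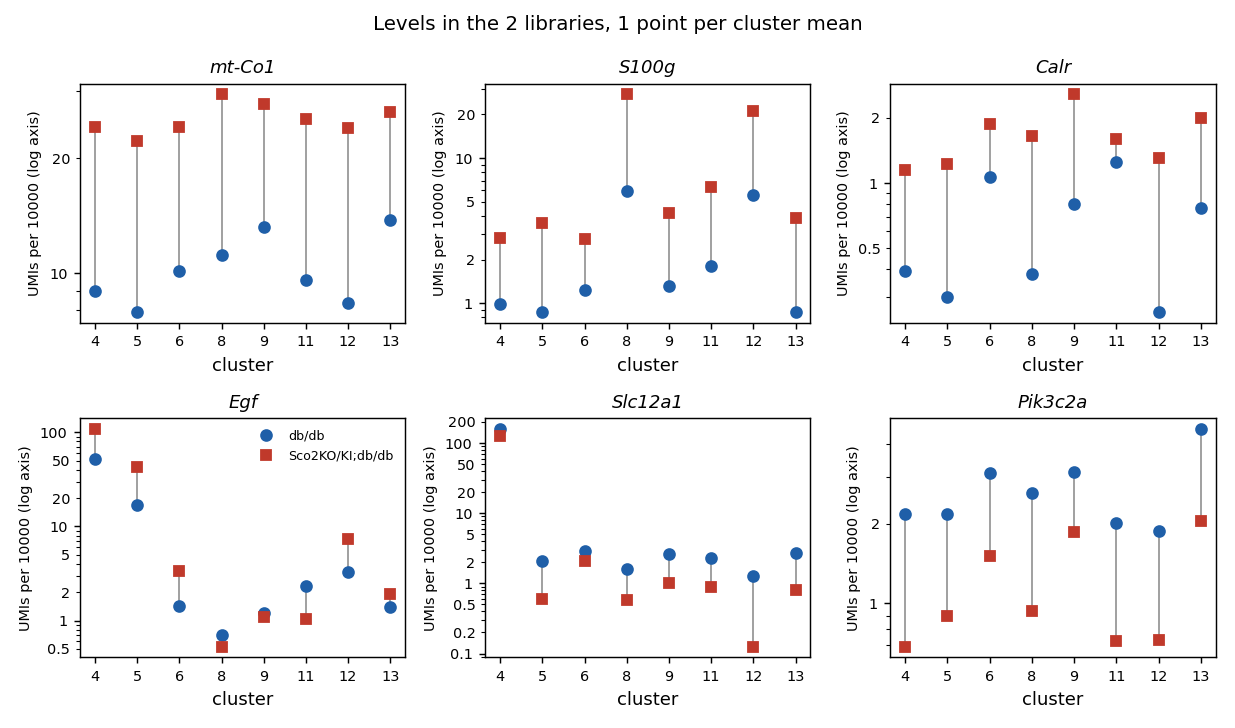
Levels of 6 genes in db/db (circles) and Sco2KO/KI;db/db (squares) in each of the 8 clusters, in UMIs per 10000 on a log axis; each point is the mean of 1 library's cluster. Squares lie above circles in every cluster for mt-Co1, S100g and Calr, below them in every cluster for Slc12a1 and Pik3c2a, and on both sides for Egf.

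Ftl1, the light chain of ferritin, lay at 4.68 to 11.3 in the double mutant against 1.92 to 5.99 in db/db. Igfbp4, which binds insulin-like growth factors, was past 2-fold higher in 5 clusters and lay at 1.34 to 5.9 in the double mutant against 0.629 to 2.56 in db/db. Spp1, the secreted phosphoprotein osteopontin, was at 5.62 in the double mutant against 1.64 in db/db in cluster 11 and at 7.13 against 2.57 in cluster 4, and near equal in the endothelium-like cluster 9, at 2.75 against 2.4. Egf, the growth factor of the thick ascending limb and distal convoluted tubule, was at 108 in the double mutant against 52.6 in db/db in cluster 4 and 42.6 against 16.9 in cluster 5, but at 1.03 against 2.32 in cluster 11. Txnip, an arrestin-like protein whose transcript follows glucose, was past 2-fold higher in clusters 5, 8 and 11 and at 7.87 against 7.73 in cluster 13.

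Several of the shared genes are textbook transcripts of the proximal tubule, and its levels are given beside them. Miox, the inositol-degrading oxygenase of the proximal tubule, lay at 1.46 to 4.82 in the double mutant against 0.536 to 1.77 in db/db, with 7.73 against 3.51 in the proximal tubule clusters. Slc22a8, an organic anion transporter, lay at 0.963 to 3.54 in the double mutant against 0.356 to 1.6 in db/db, with 6.42 against 3.44 there. Slc5a2, the glucose transporter SGLT2, was not among them; it was past 2-fold higher in 6 clusters, as at 0.91 against 0.147 in cluster 5, and was at 4.12 against 1.64 in the proximal tubule. Cyp4b1 and G6pc showed the same order, with proximal tubule levels of 9.53 against 2.41 and of 8.9 against 1.81. In the other direction Lrp2, the endocytic receptor megalin, and Fut9, a fucosyltransferase, were lower in all 8 clusters and in the proximal tubule, where Lrp2 was at 18.1 against 31.8. Over the 25 proximal tubule markers, 28 of 158 pairs were past 2-fold higher and 13 lower, beside 4.96% and 4.12% of all measured pairs, with medians from -0.63 in cluster 11 to 0.64 in cluster 13. Their part in the shared differences was not tested.

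Slc12a1, the salt transporter NKCC2 of the thick ascending limb, was among the lowest shared genes, with a smaller difference in its own segment. It was at 127 in the double mutant against 157 in db/db in cluster 4, a log2 ratio of -0.30, and at 0.126 against 1.27 in cluster 12 and 0.793 against 2.68 in cluster 13. The thick ascending limb-like cluster also held fewer nuclei in the double mutant, 179 against 327. The part of RNA carried over from these nuclei in the other clusters was not tested.

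Among the lower shared genes with roles in the cell at large, Pik3c2a, a class II phosphoinositide 3-kinase, lay at 0.688 to 2.05 in the double mutant against 1.87 to 4.54 in db/db and was past 2-fold lower in 6 clusters. It was also lower in the proximal tubule clusters, at 1.69 against 4.04, and in the lean libraries, with a median log2 ratio of -0.98. Nuak2, a kinase of the AMPK-related family, lay at 0.244 to 0.862 in the double mutant against 0.553 to 2.13 in db/db, with its largest difference in cluster 11, at 0.244 against 1.24. Mdn1, an AAA ATPase of ribosome assembly, lay at 0.191 to 0.716 in the double mutant against 0.526 to 0.928 in db/db, and Gas2, a cytoskeletal protein, at 0.172 to 2.22 in the double mutant against 0.564 to 2.76 in db/db. Gm42397, a gene known only by a model name, was past 2-fold lower in all 8 clusters and was at 0.383 against 14.1 in the proximal tubule clusters; in cluster 6 its levels were 0.221 in the double mutant, 4.01 in db/db, 10.9 in lean Sco2KO/KI and 11.4 in WT.

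Gene length moved with the direction of the shared differences. The median length was 9.29 kb for the 143 higher genes, 99.1 kb for the 223 lower genes and 71.6 kb for all genes measured in all 8 clusters. Without the mitochondrially encoded genes it was 11.9 kb for the remaining 131 higher genes. With these genes split into 5 equal groups by length, the median log2 ratio of the shortest group was 0.20, and 115 of the 143 higher genes were in it; in the other groups it was between -0.18 and -0.08. The proximal tubule clusters had 0.15 in the shortest group and the lean comparison -0.16, the opposite sign. With each length group centred on its own median, an adjustment chosen after seeing the data, 86 of the 143 higher and 90 of the 223 lower genes remained shared. The part of transcript length, and with it of unspliced and cytoplasmic RNA, was not tested.

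**Figure D4:**
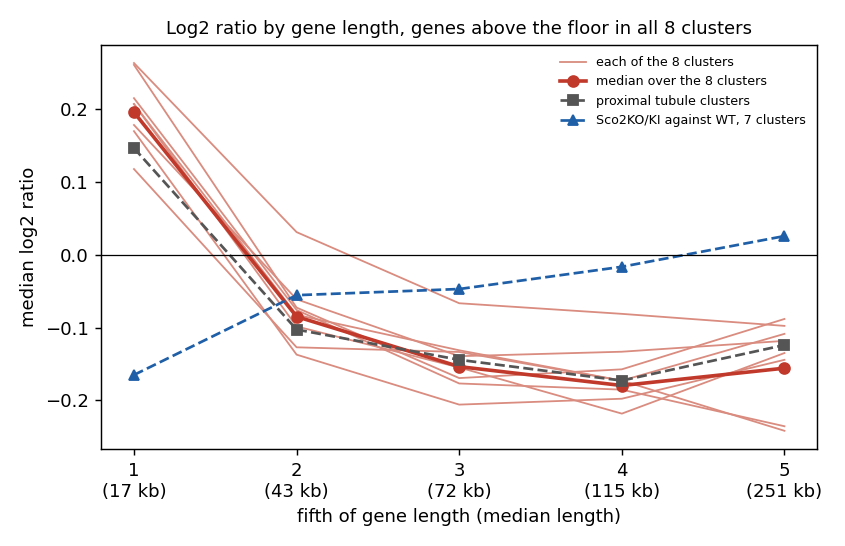
Median log2 ratio in 5 equal groups by gene length over genes measured in all 8 clusters, for each cluster (thin lines), their median (circles), the proximal tubule clusters (squares) and Sco2KO/KI against WT (triangles). The shortest group is at 0.20 in the median over the 8 clusters, 0.15 in the proximal tubule and -0.16 in the lean libraries.

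The shared genes were also followed in the proximal tubule clusters and on the lean background. Of the 143 higher genes 95.1% had a positive mean log2 ratio in the proximal tubule clusters of the same libraries, and of the 223 lower genes 7.62%, beside 37.6% of all genes measured in all 8 clusters. For Sco2KO/KI against WT the shares with a positive median were 30.8% and 37.7%, beside 43.8%. Of 2334 genes measured in the clusters of both comparisons, 14 were higher throughout both, 9 of them mitochondrially encoded, with Slc22a8 and the cell adhesion receptor Itga1 among the others. Lower throughout both were 10, among them Pik3c2a and the acetyltransferase Ep300. Another 15 were higher in the double mutant and lower in lean Sco2KO/KI throughout, and 5 the reverse.

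The genes limited to 1 cluster were most numerous in clusters 13 and 9. Of the 964 higher and 967 lower genes, 535 and 462 were measured in fewer than 4 of the other clusters, so that the floor itself can set the limit for them. In the endothelium-like cluster 9, 177 genes were past 2-fold higher and 222 lower there and in no other cluster, 136 and 114 of them measured in fewer than 4 others. Vwf, Cytl1 and Esm1 were measured in no other. Among the lower genes, Vwf, the von Willebrand factor of endothelium and platelets, was at 0.177 in the double mutant against 2.24 in db/db, Cytl1, a secreted cytokine-like protein, was listed at 0 in the double mutant and at 1.11 in db/db, and Col5a2, a fibrillar collagen chain, was at 0.113 against 1.79. Efna5, a membrane-bound ephrin, was at 0.501 against 5.87, and Ptprj, a receptor tyrosine phosphatase of vascular and blood cells, at 1.39 against 13.4. Ptprj was lower in the other 7 clusters as well, with log2 ratios of -0.90 to -0.09. Efna5 reached -0.948 in another cluster, just short of 2-fold. Mecom, a zinc finger transcription factor, was at 5.11 against 20.8 in cluster 9 and between log2 ratios of -0.58 and 0.24 in the others. In the lean libraries the same cluster held 65 nuclei of Sco2KO/KI and 124 of WT. With Sco2KO/KI first and WT second, Vwf was at 0.518 against 1.94, Efna5 at 1.22 against 5.4 and Ptprj at 2.56 against 7.24. Among the higher genes, Esm1, the endothelial proteoglycan endocan, was at 2.11 against 0.28. B2m, the light chain of class I major histocompatibility molecules, was at 7.37 against 2.5 and reached a log2 ratio of 0.97 in another cluster, just short of 2-fold. Plvap, the diaphragm protein of fenestrated capillaries, was at 15.2 against 4.3 in cluster 9 and 4.07 against 1.49 in cluster 6. The 10 endothelial markers summed to 127 in the double mutant against 99 in db/db in cluster 9, and a different mix of vessel types and a difference within them cannot be told apart.

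In cluster 6, which mixes stromal and endothelial markers, 80 genes were limited to it as higher and 78 as lower, 57 and 72 of them measured in fewer than 4 others; Ccl21a, Tnc and Ntrk3 were measured in no other. Ccl21a, a chemokine of lymphatic vessels, was listed at 0 in the double mutant and at 0.982 in db/db, Tnc, the matrix protein tenascin C, at 0.0062 against 0.568, and Ntrk3, a neurotrophin receptor, at 0.124 against 1.14. Spon1, a matrix protein, was at 3.34 against 0.946, but was past 2-fold lower in cluster 9, with a log2 ratio of -2.05. Stromal and matrix genes as a list had 0 of 20 measured members past 2-fold higher there and 3 lower, beside 3.59% and 2.5% of all measured genes in this cluster. The 14 stromal markers summed to 24.4 in the double mutant against 27.2 in db/db, and the 10 endothelial markers to 29.4 against 20.1.

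In the thick ascending limb-like cluster 4, Acss1, which makes acetyl-CoA from acetate in mitochondria, was at 12.5 in the double mutant against 4.08 in db/db and within log2 ratios of -0.41 to 0.52 in the other clusters. Kirrel3, a cell adhesion molecule, was at 1.89 against 0.312, and Bach2, a transcriptional repressor, at 1.28 against 0.357. Lower there were Zhx2, a transcriptional repressor, at 0.324 against 1.47, and Dlgap1, a scaffold protein, at 0.296 against 2.12. Zhx2 was also lower in the other 7 clusters, with log2 ratios of -0.78 to -0.11. In the distal convoluted tubule-like cluster 5, Ranbp3l was at 3.07 against 0.969 and Ezh1, a histone methyltransferase, at 1.35 against 0.379. In another cluster Ranbp3l reached a log2 ratio of 0.855 and Ezh1 one of 0.975. Slc12a3, the thiazide-sensitive salt transporter that defines this segment, was at 147 against 135, and Pvalb, a calcium buffer of its early part, at 2.31 against 0.464.

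In the connecting tubule-like cluster 8, Tgoln1, a protein of the trans-Golgi network, was at 0.754 in the double mutant against 0.0511 in db/db. Trak2, an adaptor for mitochondrial transport, was at 0.523 against 1.76. In cluster 12, Blnk, a signalling adaptor, was at 3.49 against 0.662, Erbb4, a receptor of the epidermal growth factor receptor family, at 0.833 against 2.86, and Ciapin1, a protein of iron-sulfur cluster assembly, at 0.145 against 0.736. In another cluster Erbb4 reached a log2 ratio of -0.907 and Ciapin1 one of -0.977, just short of 2-fold. Ciapin1 was past 2-fold higher in cluster 13, with a log2 ratio of 1.01. Tgoln1 in cluster 8 was at 0.919 in WT, above the double mutant as well as db/db.

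In the type B intercalated cell-like cluster 11, Uqcr11, a subunit of complex III, was at 0.823 in the double mutant against 0.181 in db/db, against 1.01 in WT. Srebf2, the transcription factor of sterol synthesis, was at 1.06 against 0.272, and Trpm3, a cation channel, at 5.37 against 1.58. Nox4, an oxidase that makes hydrogen peroxide, was at 2.29 against 9.22, Kcnk5, a potassium channel, at 0.36 against 1.84, and Cd36, a fatty acid receptor, at 0.16 against 0.805. The lowest log2 ratio in another cluster was just short of 2-fold, at -0.998 for Kcnk5, -0.975 for Cd36 and -0.916 for Nox4. The highest elsewhere was 0.878 for Uqcr11, 0.886 for Srebf2 and 0.866 for Trpm3. Srebf2 was past 2-fold lower in cluster 8, with a log2 ratio of -1.09. Proximal tubule markers were lower in this cluster as a group, summing to 52.6 in the double mutant against 91.6 in db/db. Of the 20 measured, 6 were past 2-fold lower, beside 4.84% of all measured genes there. Nox4 was at 24.8 against 31.8 in the proximal tubule clusters, and the part of proximal tubule RNA in these values was not tested. Slc26a4, the chloride-bicarbonate exchanger pendrin that marks these cells, was at 95.8 against 84.4.

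In the principal cell-like cluster 13, 319 genes were limited to it as higher and 240 as lower (151 and 111 measured in fewer than 4 others), on 98 nuclei of the double mutant and 119 of db/db. Clptm1, a transmembrane protein, was at 1.27 in the double mutant against 0.164 in db/db, and Pip5k1b, a phosphoinositide kinase, at 0.52 against 0.00954. Pip5k1b was past 2-fold lower in cluster 9, with a log2 ratio of -1.61. Mbtps2, the protease that releases SREBP and ATF6 in the Golgi, was at 0.343 against 1.73, Slc36a1, an amino acid transporter, at 0.0962 against 0.685, and Il34, a ligand of the colony-stimulating factor receptor, at 0.0446 against 1.07. Bcat1, a branched-chain aminotransferase, was listed at 0 in the double mutant and at 0.613 in db/db. Slc36a1 reached a log2 ratio of -0.936 in another cluster. Most of these levels lie near the limit of 0.5, where a value in db/db stands for about 8.61 UMIs. The sodium channel subunits Scnn1b and Scnn1g were at 9.58 against 11.1 and at 6.38 against 4.84, and Hsd11b2, the enzyme that keeps cortisol-like hormones from the mineralocorticoid receptor, was at 10.4 against 6.2.

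**Figure D5:**
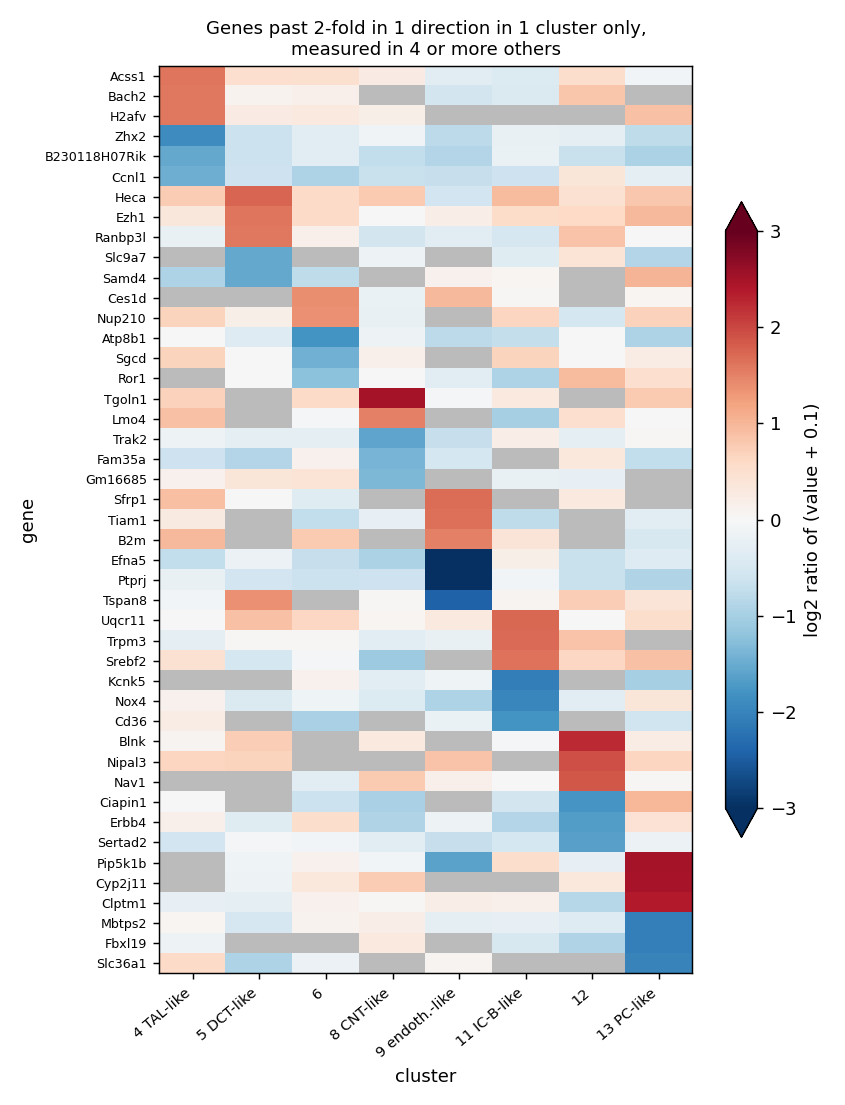
Log2 ratios in the 8 clusters of 45 genes past 2-fold in 1 direction in 1 cluster only and measured in 4 or more others. Some are past 2-fold in the other direction elsewhere. Grey cells are below the level counted as measured in both libraries, and colours beyond 3 are capped. Each gene has its darkest colour in 1 cluster, with Efna5 and Ptprj in cluster 9 as the darkest blue.

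The counts of other pathway lists can be read against the 4.96% higher and 4.12% lower of all measured pairs. Fatty acid oxidation genes had a median log2 ratio of 0.41, with 23 of 136 pairs past 2-fold higher and 4 lower. Cyp4b1 gave 7 of these 23 higher pairs, and by cluster 6 were in cluster 6 and 7 in cluster 9. The list's median was 0.67 in the proximal tubule clusters, and the part of proximal tubule RNA was not tested. Corticosteroid response genes had 14 of 88 pairs past 2-fold higher and 1 lower, led by Zbtb16, a glucocorticoid-inducible repressor, at 13.2 against 3.22 in cluster 9 and 2.9 against 0.527 in cluster 5. Fkbp5, another such target, was at 5.39 against 2.42 in cluster 9 and 1.23 against 1.83 in cluster 8. Glycolysis genes had a median of 0.31, positive in 7 of the 8 clusters, beside -0.06 for all measured genes. Of their pairs, 6 of 85 were past 2-fold higher and 1 lower. Distal sodium transport genes had a median of 0.10, with 7 of 143 pairs past 2-fold higher and 9 lower, near those shares. Segment transcription factors had 2 of 122 pairs past 2-fold higher and 8 lower, 4 of the latter in cluster 9. Integrated stress response genes, which respond to mitochondrial defects in many tissues, were mostly below the level counted as measured, with 4 of 18 pairs past 2-fold higher and 0 lower.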

How the data were processed

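The files hold values for 4 libraries of nuclei, 1 per genotype, and all 83 columns were assigned by the library code in their names. The deposited values are a normalised signal made by the authors: each nucleus scaled to 10000 UMIs, then averaged per cluster and library, which was read from the columns' totals. The submitters' processing notes name Cell Ranger, Seurat and build mm10; filters, doublet treatment and versions were not stated there, and averages allow no doublet calls. Of 21481 entries, 25 named by calendar dates were left out; 21117 of the remaining 21456 matched GENCODE vM21 names, which gave positions and lengths on mm10.

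Nuclei per column were recovered from the lowest values, since 10000 divided by the value of 1 UMI in 1 nucleus can be divided evenly by the number of nuclei; the 20 lowest whole quotients were used. Tested on simulated data for this comparison, the number was exact in 8 of 8 clusters (21456 genes), and median UMI totals deviated by at most 5.55%. Totals for whole libraries are approximate, because clusters with few nuclei are recovered less surely. Log2 ratios used a pseudocount of 0.1 and a floor of 0.5 in either library. Named shared genes were the 12 highest and 12 lowest medians among genes with 1 sign in all 8 clusters; named limited genes came from the 3 highest and 3 lowest log2 ratios per cluster, separately for genes measured in 4 or more other clusters and in fewer; and list members past 2-fold in 4 or more clusters were named. Other genes named were chosen after their values were seen, and some genes that the rules select are not reported here. Clusters were named from marker lists. Members and lists were chosen with earlier results of these data known. Alternatives covered the pseudocount, the floor, the scaling, each cluster left out in turn and genes of the proximal tubule.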

Additional observations from a re-analysis of the deposited data

Results flagged for a closer look

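For 20 genes every cluster moved one way in the double mutant against db/db and every one of 7 clusters the opposite way in lean Sco2KO/KI against WT. Cluster 11 was left out on the lean background. The clusters of a library are not replicates, each background has 1 library per genotype, and the difference between the backgrounds was not tested. Values are the median log2 ratio on db/db minus that on the lean background.

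Of these, 15 were higher in the double mutant and lower in lean Sco2KO/KI. Spp1, which encodes osteopontin, had 1.03 on db/db and -1.24 on the lean background, a difference of 2.27. Cox8a, the cytochrome c oxidase subunit, had 1.39 and -0.58, a difference of 1.96. Eef2, the translation elongation factor, had 1.05 and -0.66, a difference of 1.71. The difference was 1.52 for Igfbp4, 1.47 for Cdh16, which encodes the kidney-specific cadherin, 1.40 for Psap, the precursor of lysosomal saposins, and 1.35 for Gpx1, a glutathione peroxidase. For mitochondrial carriers it was 1.13 for Slc25a39 and 0.93 for Slc25a3, the latter a carrier of phosphate and copper. It was 1.12 for Chd9, 1.08 for Cmss1, 0.95 for Rsrp1, 0.86 for Gas6, 0.84 for 1110051M20Rik and 0.80 for Fth1, the ferritin heavy chain.

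The other 5 were lower in the double mutant and higher in lean Sco2KO/KI. The difference was -1.04 for Zfp236, -0.83 for Tnks, -0.83 for Lcor, -0.68 for Exoc4, a subunit of the exocyst, and -0.40 for Nipbl, the loader of cohesin. The shortest of 5 equal groups of genes by length had a median log2 ratio of 0.20 on db/db and -0.16 on the lean background, and its part in these 20 differences was not tested.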

How the results depend on the processing

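Counts of genes past 2-fold moved most with the floor and the pseudocount. Summed over the clusters they were 412 higher and 328 lower with a pseudocount of 0.5, 733 higher and 653 lower with a floor of 1 and 5665 higher and 4204 lower with no floor, and a pseudocount of 0.02, either centring and the removal of mitochondrially encoded genes kept them within 1.5 times. The share of higher genes among those past 2-fold was 54.7%, 60.9% after centring on the median and 50.02% after centring by gene length. Shared genes numbered 74 higher and 135 lower with a floor of 1 and 384 higher and 377 lower with no floor, where fewer or more genes were measured, and 136 higher and 118 lower after centring by gene length, a setting chosen after seeing the data. Leaving out each cluster gave 154 to 182 higher and 246 to 317 lower. Leaving out genes 5 times higher in a proximal tubule cluster removed 13 and 31. Genes limited to 1 cluster numbered 215 higher and 233 lower with a pseudocount of 0.5, 395 higher and 452 lower with a floor of 1 and 589 higher and 553 lower where no other cluster might pass 1.5-fold.

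List medians moved by more than their spread over the clusters in 11 of 213 results under an alternative. After centring by gene length the mitochondrially encoded genes were at 0.72, nuclear respiratory chain subunits at 0.18, cytosolic ribosomal proteins at 0.34, integrated stress response genes at 0.56 and insulin, IGF and leptin signalling genes at 0.24. With no floor, integrated stress response genes were at 0.0714, insulin, IGF and leptin signalling genes at -0.0445 and endothelial genes at 0.21. With a floor of 1, copper delivery and assembly genes were at 0.26 and stromal genes at 0.18, and with a pseudocount of 0.5 integrated stress response genes were at 0.51. The cause was not tested. The 12 highest and 12 lowest shared genes were chosen for having 1 sign in every cluster. Another pseudocount or a cluster left out therefore could not change the sign of their median. Either centring could have changed it and did not, but these genes were also picked for the largest medians. No paired analysis was possible because each genotype has 1 library. Counting error near the floor limits single genes in the smaller clusters most.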

Other observations

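Some genes were past 2-fold in opposite directions in different clusters. Of 2355 genes past 2-fold in any of the 8 clusters, 69 were higher in at least 1 and lower in at least 1 other. Egf was among them, past 2-fold higher in 4 clusters and lower in cluster 11. Acaa1b, a peroxisomal thiolase of the proximal tubule, was not among the 69. With the double mutant first and db/db second, Acaa1b was at 0.393 against 1.15 in cluster 9 and 0.322 against 0.916 in cluster 11. Miox and Slc22a8 of the same segment were higher in those clusters. Of the measured proximal tubule markers, 10 of 21 were higher in cluster 9 and 2 of 20 in cluster 11.

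Leukocyte markers were low in every cluster but differed in 2 of them. The 7 markers summed to 6.19 in the double mutant against 1.9 in db/db in cluster 6 and to 2.08 against 0.347 in cluster 13. Only 2 of the 7 were measured in each of these clusters. In cluster 6, 1 was past 2-fold higher, beside 3.59% of all measured genes. In cluster 13, 2 were, beside 9.69%. The part of RNA carried over from leukocytes was not tested.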
